A study of Mus musculus with 4 samples.

Results

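The 6 Iroquois homeobox genes Irx1, Irx2, Irx3, Irx4, Irx5 and Irx6 were followed in mRNA-seq libraries of mouse embryonic stem cells and trophoblast stem cells. The family was chosen by a measured value, the high 2iJ+B-A level of Irx4 over its 2iJ level, and its members were then taken by name. All 6 had a row among the 37620 gene rows of the count files, and 5 of the 6 reached 1 CPM, the counts of a library scaled to a common depth, in at least 1 of the 4 samples, as did 14263 genes in all. Irx6 did not reach this level in any sample. Irx1, Irx2 and Irx5 reached it only in the samples where they were highest and so had to differ between samples, so a count or median over the 5 genes is a description and supports nothing.

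The study asked how exogenous signals move mouse embryonic stem cells (mESCs) between pluripotent and differentiating states. Here 1 library of each of 4 conditions was analysed. The paper also used further day 2 samples of 2iJ and 2iJ+B-A and later time points, which were not analysed here. The mESC line was R1 and its samples analysed here were taken at day 2. The 2i-L cells were given 3 µM CHIR99021, which blocks GSK3, together with 1 µM PD0325901, which blocks MEK, in medium with serum and without leukaemia inhibitory factor (LIF). The 2iJ cells received the same 2 inhibitors and a JAK inhibitor at 2 µM. The 2iJ+B-A cells received these 3 inhibitors, bone morphogenetic protein 4 (BMP4) at 10 ng/ml and ALK5 inhibitor II at 10 µM, an inhibitor of the Activin and Nodal receptors. The last library was a trophoblast stem cell (TSC) culture of the line F4, labelled day 2, which was another line and, per the methods, was grown by a published TSC protocol, its medium not given in the sources used here. The 3 mESC conditions thus shared both 2i inhibitors, and no untreated mESC library was analysed here. The libraries analysed here held no replicate of any condition, so each value below is that of 1 library of 1 line. Each difference thus has no replicate check, and intervals cover counting error only. RNA came from whole cultures, in which fewer expressing cells and less RNA per cell cannot be told apart.

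Iroquois proteins are transcription factors of the TALE class of homeodomain proteins, which have a loop of extra residues in the homeodomain. They pattern the neural plate, heart, limb and other tissues of the embryo, often as repressors. In mammals the genes lie in a pair of clusters that arose by duplication, IrxA with Irx1, Irx2 and Irx4, and IrxB with Irx3, Irx5 and Irx6, and genes at like places in the clusters (Irx1 and Irx3, Irx2 and Irx5, Irx4 and Irx6) are counterparts. Irx4 is best known from the ventricular muscle of the heart, Irx3 and Irx5 from the neural tube, limb and heart conduction system, and Irx1 and Irx2 from the neural tube, lung and limb.

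The coding sequences show how closely the members are related, which matters for counts of a gene family. The longest run of codons for identical residues in all 6 members was 43 codons, or 129 bases, and lay in the homeobox. It is shown for each member, 5′ to 3′ on the coding strand of the NCBIM37 transcript models, with capitals at the bases that differ from Irx4.
Irx1: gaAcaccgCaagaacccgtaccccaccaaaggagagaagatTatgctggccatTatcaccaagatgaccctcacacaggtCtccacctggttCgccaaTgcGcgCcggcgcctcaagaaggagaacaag
Irx2: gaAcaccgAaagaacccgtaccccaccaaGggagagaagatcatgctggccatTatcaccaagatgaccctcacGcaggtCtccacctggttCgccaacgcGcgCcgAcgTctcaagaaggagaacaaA
Irx4: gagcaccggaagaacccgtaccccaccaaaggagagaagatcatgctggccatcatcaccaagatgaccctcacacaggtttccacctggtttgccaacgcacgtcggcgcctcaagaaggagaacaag
Irx3: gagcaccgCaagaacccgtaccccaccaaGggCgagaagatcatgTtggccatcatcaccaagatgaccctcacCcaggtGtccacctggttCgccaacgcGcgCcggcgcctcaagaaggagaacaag
Irx5: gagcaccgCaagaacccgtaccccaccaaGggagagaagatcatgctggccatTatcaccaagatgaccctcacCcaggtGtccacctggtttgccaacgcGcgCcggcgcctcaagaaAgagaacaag
Irx6: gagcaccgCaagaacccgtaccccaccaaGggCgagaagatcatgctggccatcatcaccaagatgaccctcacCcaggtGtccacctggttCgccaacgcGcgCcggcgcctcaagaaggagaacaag
Between 8 and 12 of the 129 bases differed from Irx4, although the encoded residues were the same. Over the whole aligned coding sequences, the 15 pairs of members were 65.4% to 71.8% identical. The most alike pair was Irx2 and Irx5, which are counterparts in the 2 clusters, and the least alike was Irx2 and Irx4 of the same cluster. The longest run of bases shared exactly by the transcripts of any 2 members was 88 bases, between Irx3 and Irx6, which was shorter than the 126-base reads. When the 6 transcripts were cut into 744 pieces of 100 bases and mapped to the genome, all 744 were placed at their own gene. The mapping listed only the best place of each piece, so it cannot show whether a piece also fits at another member.

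IrxA spans 1311 kb of chromosome 13 (NCBIM37, 72095680 to 73407068). Irx1 (ENSMUSG00000060969) lies at 72095680 to 72101171 on the minus strand, Irx2 (ENSMUSG00000001504) at 72766245 to 72771644 on the plus strand, and Irx4 (ENSMUSG00000021604) at 73397945 to 73407068 on the plus strand. IrxB spans 882 kb of chromosome 8 (94322428 to 95204855). Irx3 (ENSMUSG00000031734) lies at 94322428 to 94325553 on the minus strand, Irx5 (ENSMUSG00000031737) at 94881695 to 94885351 on the plus strand, and Irx6 (ENSMUSG00000031738) at 95198188 to 95204855 on the plus strand. Neighbouring members are separated by 665 and 626 kb in IrxA and by 556 and 313 kb in IrxB, so each gene stands far from the next.

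The 4 libraries held 33913984 to 36964392 counts on genes and were thus of like depth. A gene with 3 counts in a library stood at 0.0799 to 0.0902 CPM, and a gene under 3 counts in every sample was treated as not detectable at this depth. Markers of the labelled cell types were as follows. The 8 pluripotency genes summed to 4084, 3463, 2339 and 710 CPM in 2i-L, 2iJ, 2iJ+B-A and TSC. In TSC, Pou5f1 stood at 1.34 CPM, Nanog at 2.65, Sox2 at 154 and Esrrb at 248. Of the 8, 6 were at least 2-fold lower and 1, Utf1, higher in TSC than in 2iJ, where 17.6% and 19.4% of all genes were. The 7 measured TSC markers summed to 38.2, 43.9, 219 and 1291 CPM in 2i-L, 2iJ, 2iJ+B-A and TSC. Of the 7, 5 were at least 2-fold higher and 1, Eomes, lower in 2iJ+B-A than in 2iJ, where 5.81% and 3.17% of all genes were. Cdx2 stood at 33.6 CPM in 2iJ+B-A and 45.1 in TSC, and Elf5 at 0.133 and 298 CPM. The 2iJ+B-A culture thus held pluripotency transcripts and some of the TSC markers. The 10 fibroblast markers, which feeder cells would carry, summed to 31.5 to 48.2 CPM in the mESC samples and 8.46 in TSC, where Col1a2, Dcn and Lum were at 0. The 5 primitive endoderm markers read summed to 4.87, 5.10, 17.9 and 31.2 CPM over the samples, and the 6 mesoderm markers to 16.5, 14.8, 3.91 and 183 CPM, of which Eomes, also a TSC marker, had 179 in TSC. None of these genes was an Iroquois gene, and their part in the Iroquois levels was not tested.

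Irx4 was the most changed member between the mESC conditions. It had 10, 10, 652 and 1608 counts in 2i-L, 2iJ, 2iJ+B-A and TSC, which are 0.301, 0.291, 17.4 and 45.8 CPM. The exact Poisson intervals were 16.0 to 18.7 CPM in 2iJ+B-A and 43.6 to 48.1 in TSC, and those of 2i-L and 2iJ ended at 0.553 and 0.536 CPM. The 2i-L and 2iJ samples were thus low and alike, 2iJ+B-A was intermediate and TSC was high, with no overlap between these levels.

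Irx3 had 19, 23, 219 and 2228 counts over the samples in the same order, or 0.571, 0.670, 5.83 and 63.5 CPM. Like Irx4 it was low in 2i-L and 2iJ, intermediate in 2iJ+B-A and high in TSC. The step of Irx3 to 2iJ+B-A was smaller than that of Irx4 and the step from there to TSC larger. The interval was 5.08 to 6.65 CPM in 2iJ+B-A and 60.9 to 66.2 CPM in TSC.

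Irx1, the IrxA counterpart of Irx3, had 0, 4, 44 and 38 counts in 2i-L, 2iJ, 2iJ+B-A and TSC, which are 0, 0.116, 1.17 and 1.08 CPM. Irx5 of IrxB had 6, 7, 39 and 39 counts, or 0.180, 0.204, 1.04 and 1.11 CPM. These 2 genes were low in 2i-L and 2iJ, and their levels in 2iJ+B-A and TSC were within counting error of each other, unlike those of Irx4 and Irx3. Irx2, next to Irx4 in IrxA, had 4, 2, 5 and 38 counts, or 0.120, 0.0582, 0.133 and 1.08 CPM. It was near the limit of detection in all 3 mESC samples and was seen above it in TSC. Irx6, the terminal gene of IrxB, had 0, 1, 1 and 0 counts and was not detectable at this depth in any sample.

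**Figure D1:**
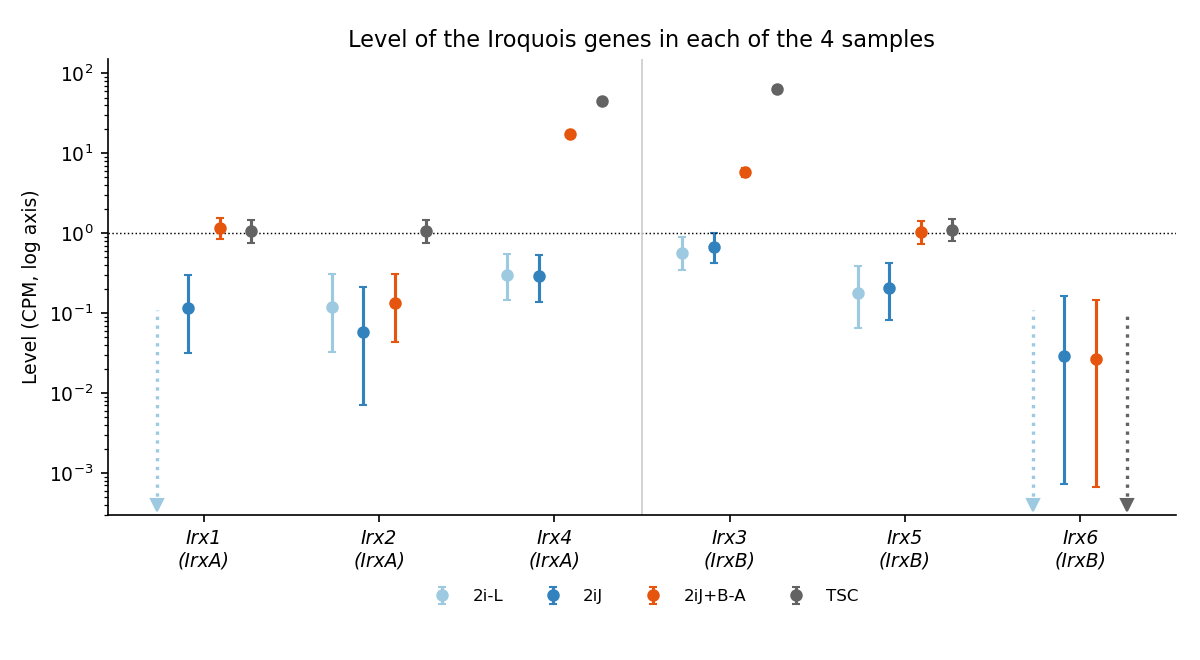
Level of each Iroquois gene (CPM, log axis) in the 4 samples, with the IrxA genes left of the grey line and the IrxB genes right of it; points are single libraries, bars are exact Poisson 95% intervals, triangles with dotted lines mark 0 counts with the upper limit, and the dotted horizontal line is 1 CPM. Irx4 and Irx3 are the members far above 1 CPM in 2iJ+B-A (17.4 and 5.83 CPM) and TSC (45.8 and 63.5 CPM), and Irx6 lies below 1 CPM everywhere.

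Levels of different genes were compared per exon length (RPKM, CPM per kb of annotated exon). In 2iJ+B-A, Irx4 was highest at 6.67 RPKM, followed by Irx3 at 2.49, Irx1 at 0.568, Irx5 at 0.433, Irx2 at 0.0403 and Irx6 at 0.00790. In TSC, Irx3 was highest at 27.1 RPKM, followed by Irx4 at 17.6, Irx1 at 0.525, Irx5 at 0.463, Irx2 at 0.328 and Irx6 at 0. The order of the leading pair was thus opposite in these samples, with an Irx4 to Irx3 ratio of 2.68 in 2iJ+B-A and an Irx3 to Irx4 ratio of 1.54 in TSC. Irx1 and Irx5 did not differ beyond their intervals in 2iJ+B-A, nor did Irx2 and Irx6, and in TSC none of the neighbours Irx1, Irx5 and Irx2 did. In 2i-L and 2iJ, Irx3 had the highest level, 0.244 and 0.286 RPKM, and the intervals of all neighbours in the order overlapped. The family summed to 0.471, 0.565, 10.2 and 46.0 RPKM from 2i-L to TSC.

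The addition of the JAK inhibitor to both 2i inhibitors was examined by setting 2iJ against 2i-L. A gene was called when its log2 ratio of (CPM + 0.5) was at least 1 in size, a 2-fold change. None of the 5 members at 1 CPM was called, while 1.23% of all 14263 genes were higher in 2iJ and 0.918% lower. The fold was 1.17 for Irx3 (95% interval 0.611 to 2.28), 0.968 for Irx4 (0.362 to 2.59) and 1.13 for Irx5 (0.325 to 4.07). These wide intervals include 2-fold changes in either direction for Irx4 and Irx5, so smaller shifts were not detectable at this depth. Irx2 had 4 counts in 2i-L and 2 in 2iJ, and Irx1 had 0 and 4.

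The addition of BMP4 and ALK5 inhibitor II to 2iJ is the contrast by which the family was selected, and its values are given as a description. Irx4 was 59.6-fold higher in 2iJ+B-A than in 2iJ (32.2 to 125), a log2 ratio of 4.50 and the rank 3 of 14263 genes. Irx3 was 8.70-fold higher (5.65 to 14.0), a log2 ratio of 2.44 and rank 62. The IrxA gene nearest to Irx4 was not called, with Irx2 at a log2 ratio of 0.18 and a fold of 2.29 (0.374 to 24.0). Irx1 was 10.1-fold higher (3.66 to 38.5) and Irx5 5.09-fold higher (2.25 to 13.5). Their log2 ratios, 1.44 and 1.13, are smaller than the folds because the added 0.5 CPM shrinks the ratios of low genes. In all, 4 of the 5 members were called higher and 0 lower, where 5.81% of all genes were higher and 3.17% lower. The median log2 ratio was 1.44 over the 5 members and 0.00 over all genes.

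Against 2i-L, which shares its 2iJ+B-A library with the contrast above, the same 4 members were called higher, where 7.93% of all genes were. Irx4 was 57.7-fold higher (31.2 to 121) and Irx3 10.2-fold higher (6.38 to 17.3). Irx5 was 5.75-fold higher (2.42 to 16.6). Irx1 had 0 counts in 2i-L, and its 2iJ+B-A level was 13.0-fold over 3 counts, the floor of the 2i-L library. The lower end of its counting interval was 10.1-fold. The fold of Irx2 was 1.11 (0.238 to 5.58). The presence of the JAK inhibitor in the comparison sample thus moved none of these calls.

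The trophoblast stem cells, a lineage apart from the embryo proper, carried all 5 members at a higher level than 2iJ cells, where 19.4% of all genes were higher. This comparison differs in cell line, culture protocol and cell type at once, and it shares the 2iJ library with the contrast that chose the family. Irx4 was 157-fold higher (85.3 to 329) and Irx3 94.8-fold higher (63.0 to 150), and their log2 ratios of 5.87 and 5.77 were the ranks 23 and 26 of 14263. Irx2 was 18.6-fold higher (4.80 to 159), a log2 ratio of 1.503, where 2iJ had 2 counts and TSC 38. Irx1 was 9.29-fold higher (3.35 to 35.8) and Irx5 5.45-fold higher (2.41 to 14.4).

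TSC and 2iJ+B-A were also set against each other. Irx3 was 10.9-fold higher in TSC (9.47 to 12.6), Irx2 8.13-fold higher (3.20 to 26.5) and Irx4 2.64-fold higher (2.41 to 2.90). The log2 ratios were 3.34, 1.32 and 1.37. These 3 of 5 members were called higher and 0 lower, where 16.4% of all genes were higher and 16.2% lower. Irx1 was at a fold of 0.924 (0.583 to 1.46) and Irx5 at 1.07 (0.669 to 1.71), and both intervals lie within 2-fold of equality. The intervals of the folds of Irx3 and Irx4 do not overlap, as far as counting error goes.

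**Figure D2:**
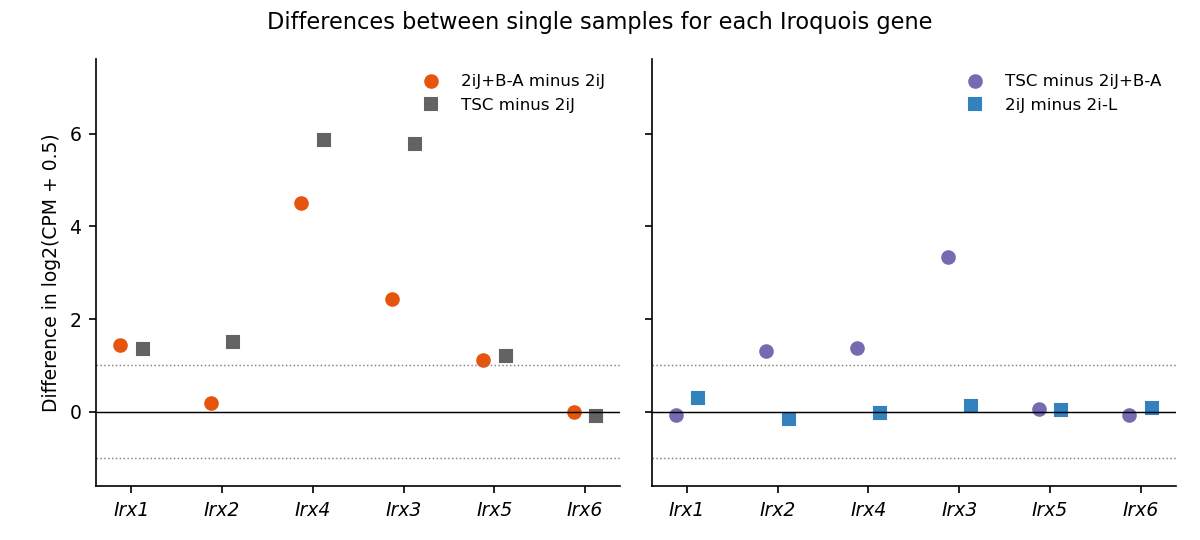
Difference in log2(CPM + 0.5) between pairs of single libraries for each member, with 2iJ+B-A minus 2iJ and TSC minus 2iJ on the left and TSC minus 2iJ+B-A and 2iJ minus 2i-L on the right; dotted lines mark a 2-fold change. Irx4 and Irx3 lead on the left (4.50 and 2.44 for 2iJ+B-A), Irx3 leads on the right (3.34), and 2iJ minus 2i-L lies within the dotted lines for each gene.

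The 2 clusters were next compared as units by summing the counts of their genes. IrxA had 14, 16, 701 and 1684 counts in 2i-L, 2iJ, 2iJ+B-A and TSC, and IrxB had 25, 31, 259 and 2267. IrxA thus took 35.9% of the Iroquois counts in 2i-L (exact binomial interval 21.2% to 52.8%), 34.04% in 2iJ (20.9% to 49.3%), 73.0% in 2iJ+B-A (70.1% to 75.8%) and 42.6% in TSC (41.1% to 44.2%). IrxA counts outnumbered IrxB counts in 2iJ+B-A and were the fewer in TSC. The share in 2iJ+B-A, and the rise of IrxA to it, rest on the Irx4 level by which the family was selected and are a description. From 2iJ to 2iJ+B-A the summed level rose 40.0-fold for IrxA (24.5 to 70.5) and 7.64-fold for IrxB (5.25 to 11.5). From 2iJ+B-A to TSC it rose 2.57-fold for IrxA (2.35 to 2.81) and 9.37-fold for IrxB (8.23 to 10.7).

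Each cluster total was for the most part the count of 1 gene at its edge. Irx4 held 71.4%, 62.5%, 93.0% and 95.5% of the IrxA counts in 2i-L, 2iJ, 2iJ+B-A and TSC. Irx3 held 76.0%, 74.2%, 84.6% and 98.3% of the IrxB counts. The comparison of clusters is therefore close to a comparison of Irx4 with Irx3, which are not counterparts in position. Within IrxA, 2iJ+B-A had Irx4 at 17.4 CPM and Irx2 at 0.133 CPM, against 0.291 and 0.0582 in 2iJ, whereas in TSC all 3 genes were higher than in 2iJ. Within IrxB, Irx6 was not detectable in any sample. The counterparts in place differed in level, with Irx1 at 0.525 and Irx3 at 27.1 RPKM in TSC, and Irx4 at 17.6 and Irx6 at 0 RPKM.

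**Figure D3:**
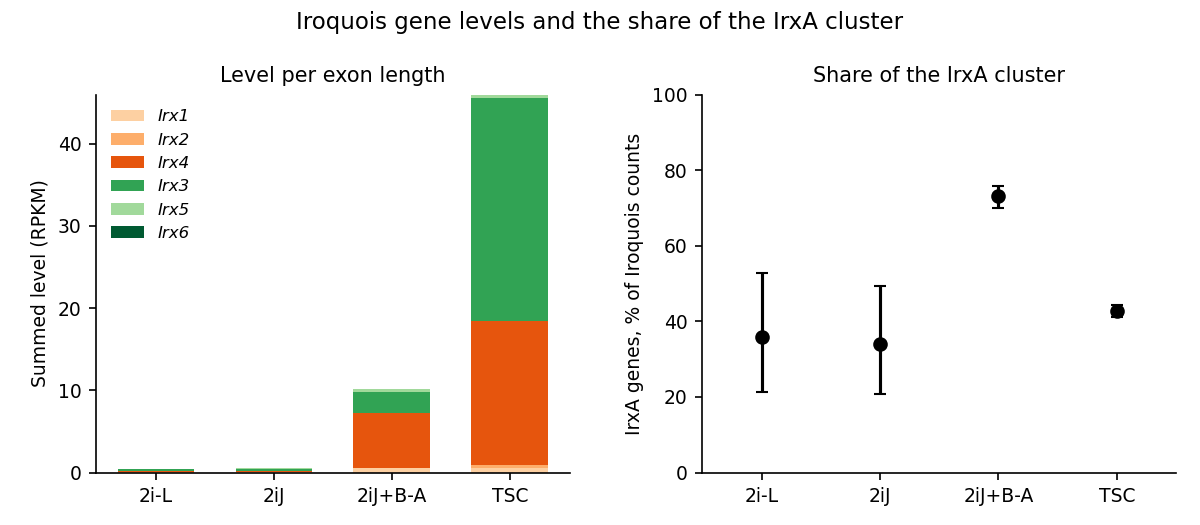
Left, level of each Iroquois gene (RPKM, stacked; IrxA genes in orange, IrxB genes in green) in the 4 single libraries; right, share of the Iroquois counts that fell on IrxA genes (%), with exact binomial 95% intervals. The family total climbs from 0.471 and 0.565 RPKM to 10.2 in 2iJ+B-A and 46.0 in TSC, and the IrxA share is highest in 2iJ+B-A at 73.0%.

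The genes around the clusters were read beside the members. Every annotated gene within 500 kb of a cluster was read, 12 at IrxA and 17 at IrxB, of which 7 and 6 reached 1 CPM. None of these 13 was called higher or lower between 2iJ+B-A and 2iJ, where 5.81% of all genes were higher and 3.17% lower, so a count of 0 among 13 is near the share over all genes. Ndufs6, a subunit gene of the mitochondrial complex I with its start 68.0 kb from that of Irx4, had 66.7, 68.8, 64.8 and 58.5 CPM in 2i-L, 2iJ, 2iJ+B-A and TSC. Fto, whose introns are known to hold enhancers of Irx3 and whose start lies 488 kb from that of Irx3, had 93.9, 92.4, 109 and 92.0 CPM. Both were thus nearly flat, whereas Irx4 was 157-fold higher in TSC than in 2iJ.

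In TSC against 2iJ, 1 neighbour of IrxA and 2 of IrxB were higher and 1 of IrxB was lower, which is near the shares over all genes of 19.4% higher and 17.6% lower. Slc6a3, the dopamine transporter gene 276 kb from Irx4, had 0.0601, 0.0582, 0.0799 and 3.76 CPM. Lpcat2, a gene of phospholipid remodelling beyond Irx6, had 0.902, 1.37, 2.10 and 4.73 CPM. Mmp2, a matrix metalloproteinase gene, fell from 9.06 CPM in 2iJ to 4.10 in TSC.

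The closest neighbour was D230002A01Rik, a long noncoding RNA gene on the strand opposite to Irx3, with its start 1.24 kb from that of Irx3. It had 2, 4, 15 and 159 counts in 2i-L, 2iJ, 2iJ+B-A and TSC, or 0.0601, 0.116, 0.399 and 4.53 CPM. Its counts were 10.5%, 17.4%, 6.85% and 7.14% of those of Irx3, so it was highest in the sample where Irx3 was. The exons of the pair overlap by 124 bases on opposite strands, and the counts used here were taken by strand. The head-to-head partner of Irx5, 4933436C20Rik (Crnde), starts 1.68 kb from Irx5 on the opposite strand. It had 66, 39, 59 and 35 counts, with a fold of 1.38 in 2iJ+B-A against 2iJ (0.907 to 2.13) where Irx5 had 5.09.

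**Figure D4:**
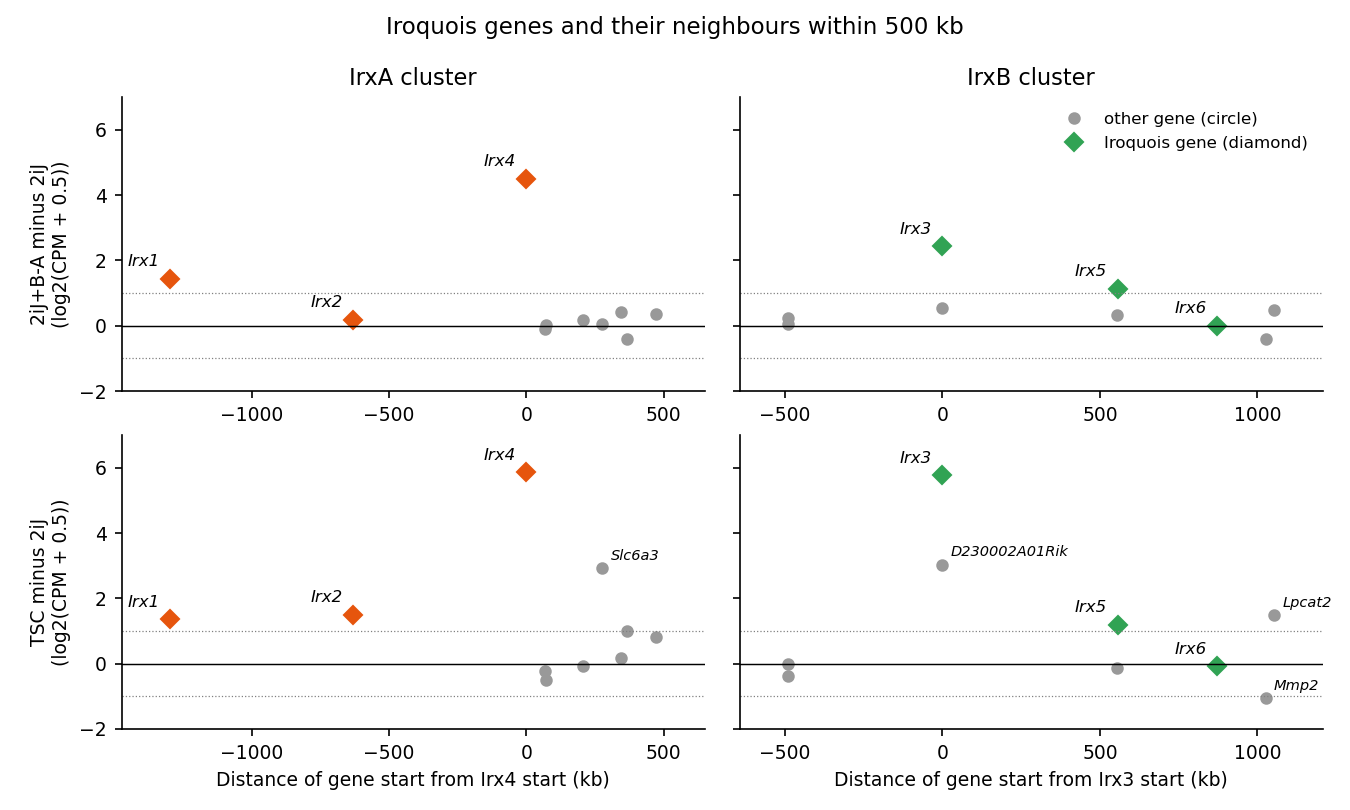
Difference in log2(CPM + 0.5) of 2iJ+B-A minus 2iJ (top) and TSC minus 2iJ (bottom) for the Iroquois genes (coloured diamonds) and the other genes at 1 CPM or more (grey circles), by distance of the gene start from that of Irx4 (IrxA, left) or Irx3 (IrxB, right) in kb; dotted lines mark a 2-fold change. In the top row no grey circle lies past the dotted lines, and in the bottom row Slc6a3, D230002A01Rik, Lpcat2 and Mmp2 do.

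The start regions of the members were read for sequence features. RefSeq windows of 300 bases, 250 before the start and 50 after it, were found for 3 of the 6 members, Irx4, Irx3 and Irx2. They are shown 5′ to 3′ on the strand of the gene, with capitals at matches to the motifs named below.
Irx4: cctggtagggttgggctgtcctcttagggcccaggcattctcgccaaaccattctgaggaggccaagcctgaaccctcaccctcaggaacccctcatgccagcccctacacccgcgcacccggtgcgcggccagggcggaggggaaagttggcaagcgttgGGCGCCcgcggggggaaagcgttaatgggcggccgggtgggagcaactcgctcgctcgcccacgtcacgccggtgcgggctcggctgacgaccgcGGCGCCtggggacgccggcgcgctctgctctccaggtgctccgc
Irx3: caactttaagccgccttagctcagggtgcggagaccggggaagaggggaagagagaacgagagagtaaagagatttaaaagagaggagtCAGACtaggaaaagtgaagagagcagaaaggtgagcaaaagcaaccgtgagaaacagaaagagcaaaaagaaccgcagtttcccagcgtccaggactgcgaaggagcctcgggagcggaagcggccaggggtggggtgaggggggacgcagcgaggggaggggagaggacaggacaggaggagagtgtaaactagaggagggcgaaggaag
Irx2: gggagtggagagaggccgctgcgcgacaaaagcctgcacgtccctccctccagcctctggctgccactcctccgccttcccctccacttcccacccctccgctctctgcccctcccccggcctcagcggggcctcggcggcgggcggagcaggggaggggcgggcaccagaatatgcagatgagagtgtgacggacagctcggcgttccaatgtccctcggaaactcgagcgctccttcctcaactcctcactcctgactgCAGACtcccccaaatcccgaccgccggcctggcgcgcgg
In GRCm38.p6 the windows are chr13:73260247-73260546 on the plus strand for Irx4, chr8:91801605-91801904 on the minus strand for Irx3, and chr13:72628570-72628869 on the plus strand for Irx2. Each matched a single place of its NCBIM37 chromosome, and the RefSeq start was that of the count annotation for Irx4 and Irx3 and 23 bases downstream of it for Irx2. The motifs searched on both strands were GGCGCC and CAGAC, which SMAD proteins of the BMP and Activin pathways are known to bind, and ACANNTGT, the site known for Iroquois proteins, where N is any base. GGCGCC reads the same on both strands and was counted once per place. No match overlapped another.

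Irx4 had 2 matches to GGCGCC, whereas Irx3 and Irx2 had 0. Of the 32851 RefSeq windows of the mouse genome, 11.9% held GGCGCC. Irx3 and Irx2 each had 1 match to CAGAC and Irx4 had 0, and 49.6% of all windows held it. None of the 3 held ACANNTGT, which 7.38% of all windows did. The windows of Irx4, Irx2 and Irx3 had 31, 25 and 14 CpG dinucleotides, against a median of 7 over all windows. GGCGCC itself holds a CpG, and its share among windows of like CpG count was not taken. A match is only a run of letters, and binding at these windows was not measured.

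Genes whose levels followed each member most closely were sought by the Euclidean distance between mean-centred log2(CPM + 0.5) profiles over the 4 samples. The 5 genes closest to Irx4 were Nxf7, Epn3, Igf2, Igf2as and 3830417A13Rik, at distances of 0.36 to 1.20. Nxf7, an X-linked gene of the nuclear RNA export factor family, had 2.53, 3.70, 77.0 and 189 CPM. Igf2, the imprinted insulin-like growth factor gene of the fetus and placenta, had 140, 134, 1297 and 4354 CPM, and its counts and those of the antisense gene Igf2as come from 1 locus. Irx3 was at rank 20 from Irx4, at a distance of 1.72. By Pearson correlation over the same 4 samples, 0 of these 5 genes were among the nearest 5 and Irx3 was at rank 911, so the list depends on the measure.

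The genes closest to Irx3 were Sct, 1200009I06Rik, Sh3bp5, Bmp8b and Gdf6, at distances of 0.27 to 0.55. Sct, which encodes the hormone secretin, had 0.331, 0.262, 4.68 and 42.7 CPM, and Bmp8b, a BMP-family ligand gene, had 2.04, 2.97, 16.5 and 117 CPM. Both were low in 2i-L and 2iJ, intermediate in 2iJ+B-A and high in TSC. The profiles of Irx1, Irx5 and Irx2 span little more than the added 0.5 CPM, so their nearest genes, led by Gpr157, Abca3 and Myo1e, were matched on compressed values. Irx5 stood at rank 61 from Irx1, at a distance of 0.42.

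Other genes of the class and of tissues in which Iroquois genes act were read from lists. In 2iJ+B-A against 2iJ, 5.81% of all genes were higher and 3.17% lower. Of 12 other TALE-class genes, Meis1 was higher in 2iJ+B-A than in 2iJ, with 1.78 and 4.53 CPM, and Mkx and Tgif2 were lower, with log2 ratios of -1.47 and -1.08. In TSC against 2iJ 4 of the 12 were higher and 4 lower, where 19.4% and 17.6% of all genes were. The median log2 ratio of the 12 was -0.02 in 2iJ+B-A and 0.22 in TSC. Tgif1, the most highly expressed in the mESC samples but below Pbx2 and Tgif2 in TSC, had 157, 148, 145 and 49.96 CPM.

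Of 11 BMP-responsive genes, 9 were higher in 2iJ+B-A than in 2iJ and 0 lower, where 5.81% and 3.17% of all genes were. Their median log2 ratio was 1.96. The largest were Id1, Id2, Id3 and Msx2, at log2 ratios of 3.44, 2.98, 2.54 and 2.07. In TSC against 2iJ 3 of the 11 were higher and 1 lower, where 19.4% and 17.6% of all genes were, and Id2 stood at 446 CPM in TSC.

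Of 17 heart genes, 13 reached 1 CPM and 4 were higher in 2iJ+B-A than in 2iJ, namely Hand1 at a log2 ratio of 5.84, Tbx20 at 2.47, Myl4 at 1.45 and Gata4 at 1.01. The median of the 13 was 0.24, and 5.81% of all genes were higher in this comparison. Hand1 and Gata4 are also used in trophoblast and primitive endoderm, and Hand1 was on the TSC marker list. In TSC against 2iJ 4 of the 13 were higher and 4 lower, where 19.4% and 17.6% of all genes were. Hand1, the most highly expressed in 2iJ+B-A and TSC, had 104 and 383 CPM there.

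Neural plate genes were read because Irx3 is known from that tissue. Over all genes, 5.81% were higher and 3.17% lower in 2iJ+B-A than in 2iJ. Of 10 listed, 9 were read and 5 reached 1 CPM, and 0 were higher in 2iJ+B-A than in 2iJ, while Pax6 and Sox3 were lower at log2 ratios of -1.86 and -1.10. TSC had 2 of the 5 higher and 0 lower than 2iJ, where 19.4% and 17.6% of all genes were. The most highly expressed, Nes, had 39.5, 37.6, 43.8 and 73.1 CPM. Of 9 surface ectoderm genes, 8 were read and 5 reached 1 CPM, and 3 were higher, namely Dlx3 at a log2 ratio of 3.59, Dlx5 at 1.65 and Wnt6 at 1.30. In TSC against 2iJ 4 of these 5 genes were higher and 0 lower, where 19.4% and 17.6% of all genes were. Grhl2, the most highly expressed of them in 2iJ+B-A, had 12.1, 23.7, 36.4 and 61.2 CPM. Of 8 genes of the response to retinoic acid, 6 reached 1 CPM and none was called in 2iJ+B-A against 2iJ. Of these 6, 1 was higher and 1 lower in TSC than in 2iJ, where 19.4% and 17.6% of all genes were. Cyp26a1, which degrades retinoic acid, rose from 0.262 CPM in 2iJ to 24.0 in TSC, and Rarb fell from 1.02 CPM to 0.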

How the data were processed

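Poly-A mRNA of 4 cultures was sequenced by the authors as directional libraries. Per the labels and methods, they called bases with CASAVA 1.8.2, trimmed adapters and bases under a quality of 20, and mapped 126-base read pairs to NCBIM37 with STAR 2.4.2a. The deposited values are raw counts of uniquely mapped pairs per Ensembl gene, and the annotation release is not given in the sources used here. The column for reverse-stranded libraries was used, which held 29.1 to 32.1 times the counts of the opposite column. Rows that name no gene (16.4% to 17.8% of pairs) were left out, and 0 columns of per-sample values were unused.

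Counts were scaled to CPM with edgeR 4.0.16 TMM factors, and genes at 1 CPM or more in at least 1 sample were kept. Ratios used log2(CPM + 0.5), and RPKM used the exon union of GENCODE models. With 1 sample per condition no test was fitted. Folds of CPM carry exact Clopper-Pearson 95% intervals and levels exact Poisson intervals, for counting error only. The scaling and the ratio formula were tested on simulated data, the formula in code separate from that of the reported ratios. Transcript pieces were mapped with minimap2 2.31-r1302. Alternatives changed the scaling, added CPM, filter, fold, strand column, gene length and likeness measure. The members and gene lists were chosen with earlier results of these data known. Named genes were all members, some of the neighbours at 1 CPM or more (those called, the closest and Fto), the 5 nearest profiles and, per list, up to 4 largest called genes and the most highly expressed one, which for the retinoic acid list is not reported here. A gene each of the neural plate, surface ectoderm, TSC and primitive endoderm lists was not analysed here.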

Additional observations from a re-analysis of the deposited data

Results flagged for a closer look

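The opposite-strand column, which the comparisons above do not use, held Iroquois counts beyond the number that 0 counts in a control sample allows. Irx3 had 50 opposite-strand counts in TSC, 2.19% of its counts on both strands, against 0 in 2i-L and 1 in 2iJ. Irx3 also had 9 in 2iJ+B-A, or 3.95%. Irx4 had 8 in TSC, or 0.495%, against 0 in 2i-L and 0 in 2iJ. Over all genes the opposite strand held 3.02% to 3.32% of the counts, so the share at Irx3 was near that of the library and the share at Irx4 below it. D230002A01Rik, which overlaps Irx3 on the opposite strand, had 159 counts of its own in TSC and 15 in 2iJ+B-A, and its part in the opposite-strand counts of Irx3 was not tested.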

How the results depend on the processing

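No paired analysis was possible because each condition had 1 sample among those analysed here, and for the same reason no replicate could be left out. No Iroquois value changed direction under any alternative. Of 150 recomputed log2 ratios, 148 stayed within their error, and the others were those of Irx4 with 0.1 CPM added, 5.48 in 2iJ+B-A against 2iJ and 6.87 in TSC against 2iJ. The error had no limit where a sample had 0 counts, so such ratios of Irx1 and Irx6 stayed within it at any value. Irx1 in 2iJ+B-A against 2i-L thus went from 1.74 to 3.67 with 0.1 CPM added. Calls changed in 8 of the 150. With 1 CPM added, Irx1 fell short of 2-fold in 2iJ+B-A (0.96) and TSC (0.90) against 2iJ, Irx2 in TSC against 2iJ (0.98) and 2iJ+B-A (0.88), and Irx5 in 2iJ+B-A against 2iJ (0.76) and 2i-L (0.79) and in TSC against 2iJ (0.81). With 0.1 CPM added, Irx1 passed in 2iJ against 2i-L (1.11). Of 72 CPM values, 70 held, and Irx3 counted without strand gave 4.68 CPM in 2iJ+B-A and 50.1 in TSC against 5.83 and 63.5, and the cause was not tested. All 24 RPKM values held with the longest transcript as the length. The 5 genes nearest to Irx4 by Pearson correlation were Mex3b, Bmp4, Stambp, Gabre and Hand1, and 0 of them were among the 5 nearest by distance.

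Counts over all genes moved most in 2iJ against 2i-L, where 175 genes were higher and 131 lower. These became 422 and 230 with 0.1 CPM added, 94 and 87 with 1 CPM added, 105 and 87 with a filter of 5 CPM, and 3 and 5 at 4-fold. At 4-fold the higher counts were 141 in 2iJ+B-A against 2iJ, 249 against 2i-L, 1092 in TSC against 2iJ and 792 in TSC against 2iJ+B-A, with 990 lower. Other scalings moved the median of all genes by less than 0.1. Irx1, Irx2 and Irx5 rest on at most 44 counts in a library, which limits what can be said of them.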
